A study of Mus musculus with 24 samples.

Results

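The phase II conjugation enzymes attach a polar group to drugs, steroids, bile acids, bilirubin and reactive lipids, and make them easier to export. They were taken here as every gene whose symbol starts with Ugt1, Ugt2, Ugt3, Sult, Gsta, Gstm, Gstp, Gstt, Gsto, Gstk or Mgst, leaving out Sult1e1. A probe set had to name a single gene, and a gene with several probe sets was read through the one with the highest mean over all arrays. This gave 43 of the 18820 genes measured in that way. They comprised 8 UGT2 genes, Ugt3a1, 14 SULT genes, 2 alpha-class, 6 mu-class, 2 pi-class and 7 other soluble glutathione transferases, and 3 microsomal glutathione transferases. Another 14 probe sets carry family symbols together with other genes and were left out. Those are the shared Ugt1a probe set and the probe sets common to Gsta1 and Gsta2, to Gstp1 and Gstp2, to Sult2a1 and its copies, to Ugt2a1 and Ugt2a2, to Ugt3a1 and Ugt3a2, and to Gstm5 and a Riken gene. No UGT1 gene and no Gsta1 or Gsta2 is therefore described.

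UDP-glucuronosyltransferases (UGT) sit in the endoplasmic reticulum and transfer glucuronic acid from UDP-glucuronate. Cytosolic sulfotransferases (SULT) transfer a sulfonate group from the donor PAPS. Glutathione transferases (GST) join glutathione to electrophiles, and the microsomal members (MGST) do so from membranes. Liver is the main organ of conjugation, and the enterocyte meets ingested compounds first, so that both tissues carry overlapping but unequal sets of these enzymes.

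The arrays came from Casp1-null and wild-type male mice of the C57BL/6 strain, aged 14 to 16 weeks and kept on chow. Each genotype gave 3 arrays of duodenum, of jejunum, of ileum and of liver, which makes 8 groups and 24 arrays. Casp1 encodes caspase-1, the protease of the inflammasome, and the study asked how its loss bears on the release of triglyceride-rich lipoproteins. The mutation is carried in the whole body. The Casp1-null line had been backcrossed for 10 generations to C57Bl/6, and the wild-type mice were C57Bl/6J, so genotype and any remaining strain difference cannot be told apart. Livers of both genotypes were taken after 16 h without food. The intestines of both genotypes came from fasted mice that had received 200 µL of olive oil by gavage 2 h earlier, and only the scraped epithelium was used. All values are the deposited log2 values after RMA. Nothing in the labels says how many mice gave the arrays or whether replicate numbers mark the same mouse, so the p-values measure the spread between these samples, which may in part be technical.

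Casp1 lay between 5.82 and 7.80 in the 9 intestinal Casp1-null arrays and between 8.26 and 9.95 in the 9 intestinal wild-type arrays. In liver it lay between 3.80 and 4.27 in Casp1-null and between 4.22 and 4.60 in wild type, under the background reading used here, so it is no check of the genotype labels there. That reading is the lowest array median of the organ, 5.19 for liver and 4.87 for intestine; a group mean under it was taken as not shown above background. Defining markers fitted the labelled tissues. The 10 hepatocyte markers averaged 12.90 to 13.11 in the liver arrays and 5.02 to 6.01 in the intestinal arrays. The 10 enterocyte markers averaged 11.48 to 12.87 in the intestinal arrays and 6.36 to 7.11 in the liver arrays. Among the intestinal arrays 3 stood apart. Exocrine pancreas markers (9 of 12 measured) averaged 10.13 in duodenum wild-type replicate 1, against 4.20 to 4.70 in the other 17. The 10 smooth muscle and stroma markers averaged 8.88 in ileum Casp1-null replicate 3 and 9.24 in ileum wild-type replicate 2, against 4.25 to 5.56 in the other 16. Calls that these 3 arrays bear on are given below with and without them. Jejunum wild-type replicate 3 carried the distal genes Fabp6 and Slc10a2 at a mean of 8.87, against 5.37 to 6.93 in the other 5 jejunal arrays. Without it the 14 calls between jejunum and ileum were 14 and the 21 between duodenum and jejunum were 18, and no enzyme was called by genotype in jejunum. In such bulk samples, fewer cells of a type and less RNA per cell cannot be told apart.

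Of the 43 enzymes, 24 lay above the background reading in all 8 groups and 35 in at least 1 group. The 8 that never did were Sult1c1, Sult2a6, Sult3a1, Sult3a2, Sult4a1, Sult6b1, Gsto2 and Gstt4, whose group means did not exceed 4.27. A group held between 28 and 32 enzymes above it. Levels of different genes come from different probes and cannot be ranked as amounts, so the plot of levels by group centres each gene on its own mean.

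**Figure D1:**
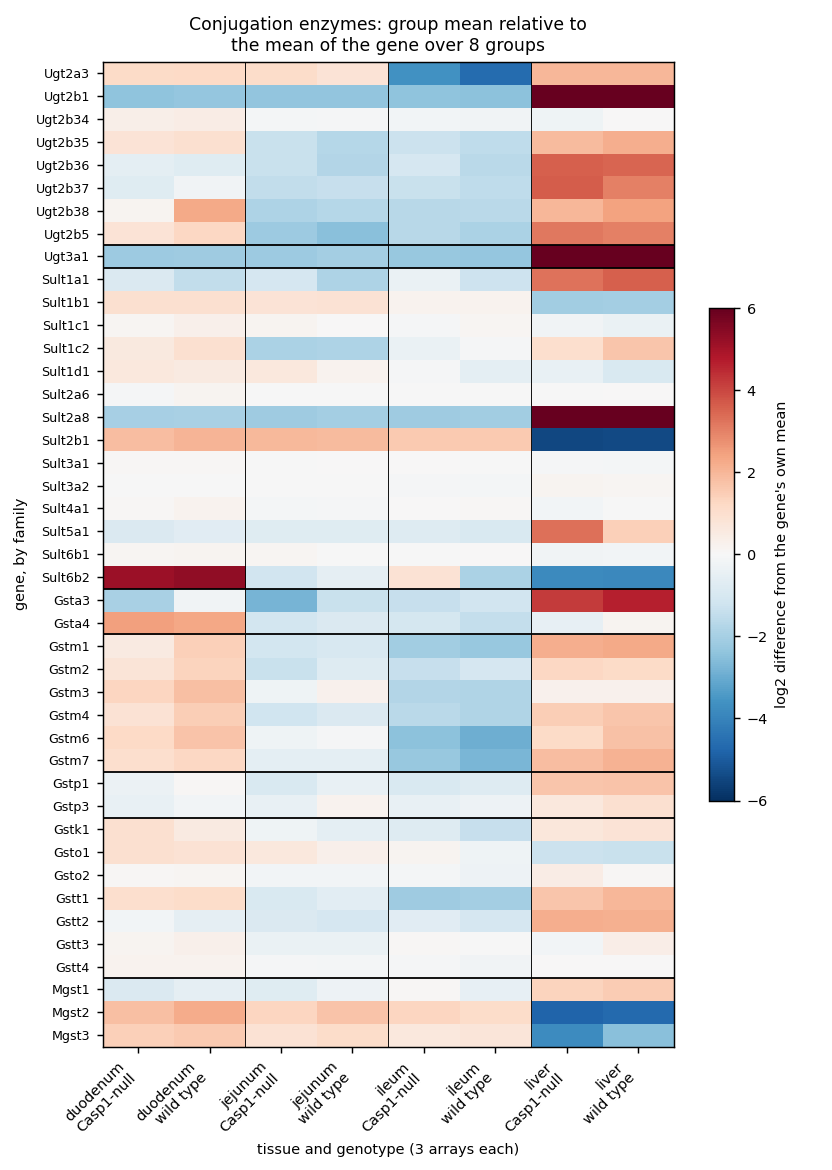
Heat map of the 43 conjugation enzymes (rows, by family) in the 8 groups (columns, Casp1-null left of wild type in each tissue). Colour is the group mean minus the mean of that gene over the 8 groups, in log2 units, and the 2 columns of a tissue mostly share a colour, while tissues and segments differ by up to several log2 units.

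Wide differences among these enzymes ran along the wild-type small intestine. Between duodenum and ileum, 26 of 43 enzymes differed, all of them higher in the duodenum (limma, Benjamini-Hochberg adjusted p under 0.05). Over all 18820 genes the same test called 27.9% in either direction and 13.2% as higher in duodenum. The median difference was 0.85 log2 over the enzymes and 0.05 log2 over all genes. Without the 3 arrays that stood apart, 22 of the 26 passed again and all 26 kept their direction; Gstt2, Gstt4, Sult2b1 and Ugt2b36 did not pass. Some calls rest on little: Gstt4 and Ugt2b37 are among the 26 but were under the background reading in both segments, and Sult2b1, which sulfates cholesterol and pregnenolone, was higher by 0.47 log2.

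The mu-class glutathione transferases, which lie next to each other on chromosome 3, were all higher in duodenum. All 6 of 6 were called, with differences between 2.35 and 4.65 log2. Gstm6 showed the widest of them, with 10.69, 10.74 and 10.62 in duodenum, 8.82, 9.31 and 8.60 in jejunum and 6.27, 5.84 and 5.99 in ileum. No array of one segment overlapped another, and duodenum exceeded ileum 25.1-fold (4.65 ± 0.23 log2, SE, adjusted p = 3.42e-09). Gstm1, the best studied member, had 11.64 in each of the 3 duodenal arrays, 9.24, 9.52 and 9.05 in jejunum, and 7.60, 8.66 and 7.54 in ileum. Its highest ileal value came from the wild-type array with the high stroma markers, and the duodenum stood 13.1-fold above the ileum (adjusted p = 2.09e-06). The differences without the 3 arrays that stood apart were 4.55 log2 for Gstm6 and 4.07 log2 for Gstm1. Gstm7, Gstm3, Gstm4 and Gstm2 differed by 3.97, 3.62, 3.31 and 2.35 log2. These genes are close copies, and probes may read more than one of them; both Gstm3 probe sets gave nearly the same difference, 3.62 and 3.73 log2.

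Among the alpha-class members, Gsta4, which conjugates the lipid peroxidation product 4-hydroxynonenal, had 12.02, 11.59 and 11.73 in duodenum, 8.54, 8.88 and 8.43 in jejunum and 8.07, 8.03 and 8.03 in ileum. It was 13.4-fold higher in duodenum than in ileum (3.74 ± 0.24 log2, SE, adjusted p = 4.71e-08), while jejunum and ileum did not differ by the test (adjusted p = 0.153). Gstt1 of the theta class and Gstk1, the kappa-class enzyme of mitochondria and peroxisomes, were higher in duodenum by 3.15 and 1.92 log2. Mgst2 and Mgst3 were higher by 1.11 and 0.85 log2. Mgst1, the abundant membrane enzyme of endoplasmic reticulum and mitochondria, differed by -0.05 ± 0.11 log2 (SE, adjusted p = 0.792).

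Several glucuronosyltransferases varied along the segments. Ugt2a3 was high in duodenum and jejunum, with 11.26, 11.25 and 10.88 in duodenum and a mean of 10.75 ± 0.22 in jejunum (SD, n = 3), and low in ileum, with 5.40, 4.68 and 5.88. Duodenum exceeded ileum 56.2-fold (5.81 ± 0.24 log2, SE, adjusted p = 6.32e-10) and jejunum exceeded ileum by 5.43 log2 (adjusted p = 4.77e-09), but duodenum and jejunum did not differ by the test (0.39 ± 0.24 log2, SE, adjusted p = 0.442). Ugt2b38, Ugt2b5 and Ugt2b35 instead were already low in jejunum. Ugt2b5 had 9.36, 9.32 and 9.25 in duodenum, against 4.94, 5.54 and 6.14 in jejunum, a 13.6-fold difference (adjusted p = 3.06e-06). Ugt2b38 was 15.5-fold and Ugt2b35 6.48-fold higher in duodenum than in jejunum, and none of the 3 differed between jejunum and ileum by the test (adjusted p between 0.251 and 0.867). Ugt2b34 was high throughout, with group means between 11.96 and 12.64 in the intestine.

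The Ugt2a3 promoter is shown because this gene had the steepest fall between jejunum and ileum. It holds 2 copies of a GTTAAT element of HNF1, a factor of liver and intestinal epithelium, at bases -54 and -47 before the start. Capitals mark both copies of GTTAAT, searched on both strands in 300 bases (250 before to 50 after each start, RefSeq, GRCm38.p6). The letters occur in 7.1% of 32851 promoters and in 7 of 51 promoters of 40 of these enzymes, and no other motif searched lies in this window.
Ugt2a3 promoter, chr5:87337146-87337445, minus strand: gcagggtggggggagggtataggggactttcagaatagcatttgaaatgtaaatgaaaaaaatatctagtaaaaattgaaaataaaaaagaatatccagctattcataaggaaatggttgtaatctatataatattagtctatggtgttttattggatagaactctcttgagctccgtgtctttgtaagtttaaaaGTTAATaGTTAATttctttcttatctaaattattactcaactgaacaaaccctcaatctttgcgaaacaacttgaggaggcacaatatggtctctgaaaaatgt

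The sulfotransferase Sult6b2 had the widest range of all 43 enzymes between duodenum and ileum. Its values were 12.30, 12.04 and 12.32 in duodenum, 5.27, 7.33 and 6.48 in jejunum and 4.76, 4.87 and 5.45 in ileum, where its mean of 5.03 lay close to the background reading. Duodenum exceeded ileum by 7.19 ± 0.57 log2 (SE), a 146-fold difference (adjusted p = 3.85e-07), and exceeded jejunum by 5.86 log2. Sult1d1, which in mouse sulfates catecholamines, and Sult1b1, which sulfates thyroid hormones and phenols, were higher in duodenum than in ileum by 1.10 and 0.78 log2. Sult1c2 had the only difference in the opposite direction. In jejunum it had 3.45, 3.36 and 3.60, under the background reading, against 5.14, 5.54 and 5.14 in ileum, which is at least 1.32-fold lower in jejunum (adjusted p = 0.00482).

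Between jejunum and ileum, 14 of 43 enzymes differed, 13 higher and 1 lower in jejunum, against 15.4% of all genes (6.74% higher). Without jejunum wild-type replicate 2 that count was 9. Without the 3 arrays that stood apart, 11 of the 14 and 18 of the 21 below passed again. Between duodenum and jejunum, 21 of 43 differed, all higher in duodenum, against 7.76% of all genes (4.38% higher). The 26 calls between duodenum and ileum became 22 to 28 when single arrays were left out.

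**Figure D2:**
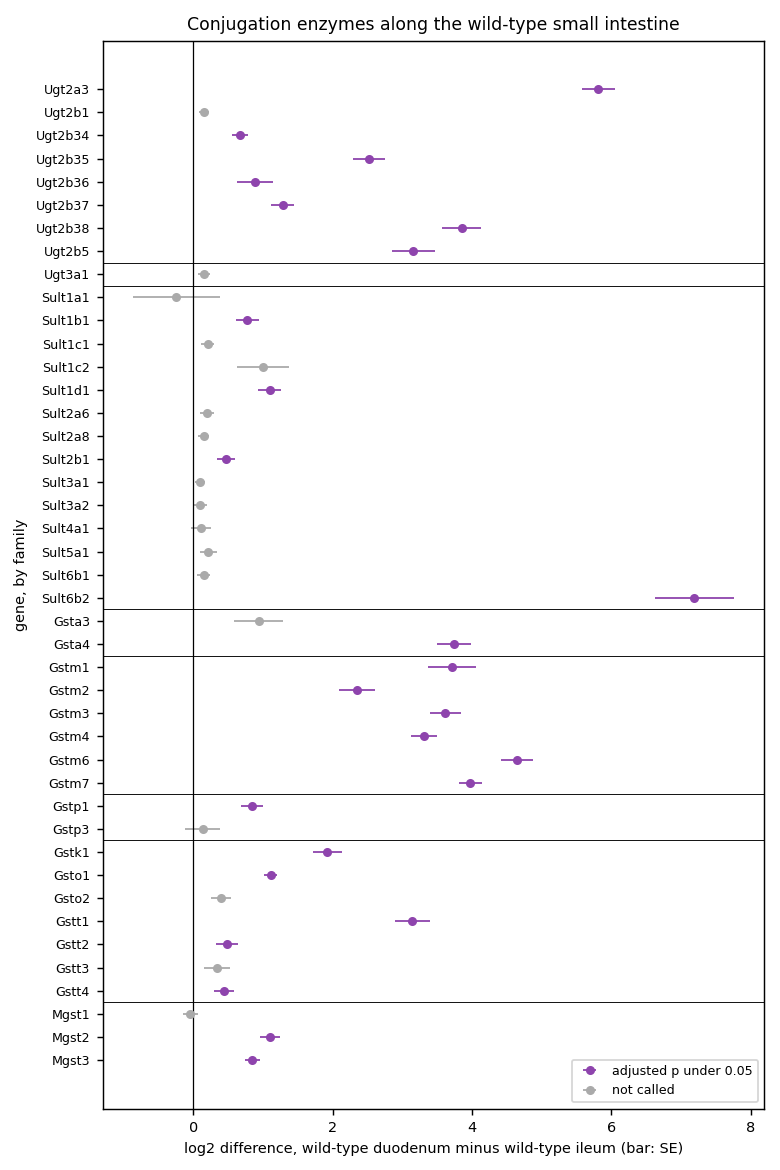
Wild-type duodenum minus wild-type ileum for the 43 enzymes, in log2 units with the SE of the fit (3 arrays per segment). Purple points passed an adjusted p of 0.05 (26 of 43); all of them lie right of 0, with Sult6b2 at 7.19 and Ugt2a3 at 5.81.

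Many of these enzymes differed in level between liver and intestine, as did most genes, while 24 of the 43 were above the background reading in all 8 groups. In wild type, 34 of 43 enzymes differed between liver and the averaged segments, 24 higher and 10 lower in liver, but the same test called 70.1% of all genes (39.0% higher and 31.1% lower). Of the 10 lower ones, Sult1c1, Sult3a1 and Sult6b1 were under the background reading in both organs. Without the 3 arrays that stood apart, 33 of the 34 passed again and all 34 kept their direction; Sult3a1 did not pass. Tissue, fasting and oil load differ together between these samples and cannot be told apart. Ugt2b1, a major hepatic glucuronosyltransferase of the mouse, had 12.15, 11.98 and 12.12 in liver, against 2.52 to 2.79 in the wild-type intestinal arrays, which is at least 148-fold higher (adjusted p = 1.04e-26). Ugt3a1, whose human counterpart uses UDP-N-acetylglucosamine, was at least 89.3-fold higher in liver, and Sult2a8, a bile acid sulfotransferase of mouse liver, at least 78.8-fold. All 3 lay far below the background reading in each segment. Gsta3, the alpha-class enzyme that protects mice from aflatoxin, was 47.8-fold higher in liver (5.58 ± 0.27 log2, SE, adjusted p = 3.49e-13). Sult1a1, the phenol sulfotransferase, was at least 24.7-fold higher.

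On the intestinal side stood Sult2b1 and 2 of the microsomal transferases. Sult2b1 had 3.99, 4.15 and 3.85 in wild-type liver and group means between 11.02 and 11.48 in wild-type segments, at least 68.2-fold lower in liver (adjusted p = 1.5e-21). Mgst2, which can form leukotriene C4, was at least 29.0-fold lower in liver, and Mgst3 was 12.4-fold lower (-3.63 ± 0.15 log2, SE). Sult6b2 was at least 6.42-fold and Sult1b1 6.60-fold lower. By contrast Mgst1 was 3.88-fold and Gstp1, a pi-class enzyme, 4.24-fold higher in liver. Gstp3, the other pi-class member, was higher in liver by 1.05 log2.

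Few genotype differences passed the test. The test called 2 of 43 enzymes in duodenum (1.21% of all genes), 0 in jejunum (2.06%), 2 in ileum (0.893%) and 1 in liver (0.925%). Counts of 0 to 2 among 43 are too small to set these enzymes apart from all genes. In jejunum 1 or 2 enzymes passed under 9 of 27 alternatives. The median difference over the 43 enzymes was -0.16 log2 in duodenum, -0.06 in jejunum, 0.08 in ileum and -0.06 in liver, while the medians over all genes lay between -0.02 and 0.00.

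**Figure D3:**
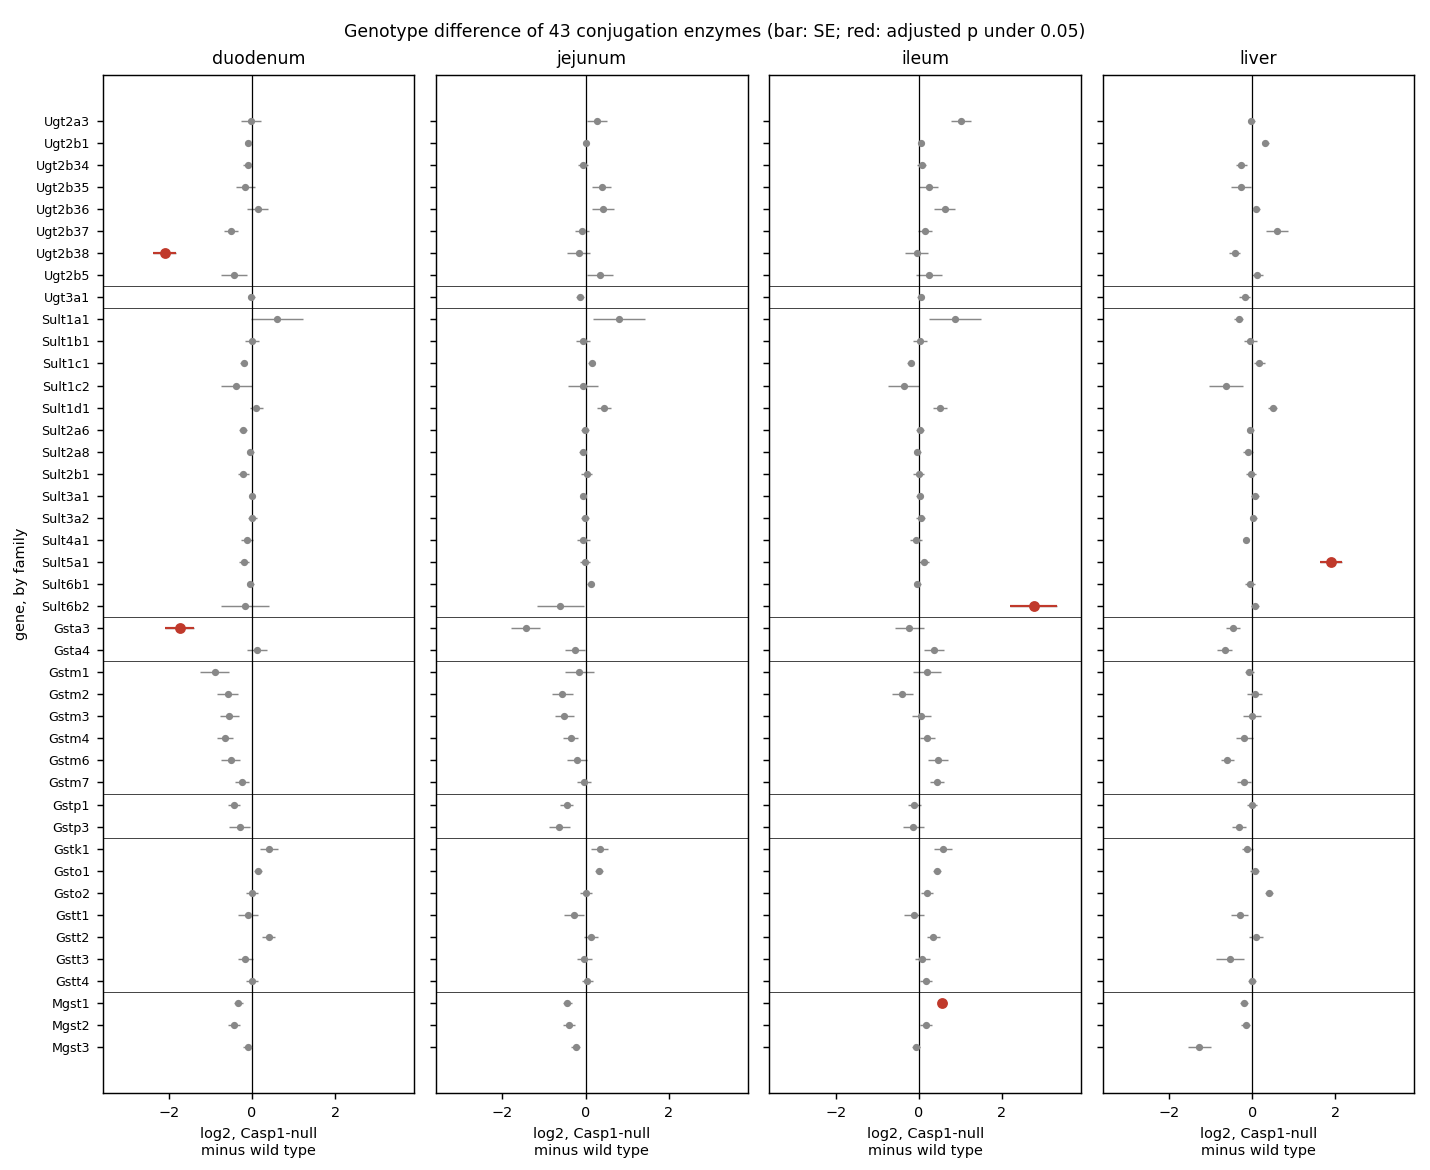
Casp1-null minus wild type for the 43 enzymes in duodenum, jejunum, ileum and liver, in log2 units with the SE of the fit (3 arrays per genotype). Red points passed an adjusted p of 0.05: Ugt2b38 at -2.10 and Gsta3 at -1.75 in duodenum, Sult6b2 at 2.76 and Mgst1 at 0.56 in ileum, and Sult5a1 at 1.89 in liver; jejunum has none.

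In duodenum, Ugt2b38 and Gsta3 were lower in Casp1-null mice. Ugt2b38 had 7.30, 7.72 and 7.40 in the Casp1-null duodena, against 10.45, 9.10 and 9.19 in the wild-type duodena. The groups did not overlap, and the highest wild-type value came from the array with the pancreas markers. Its mean was 7.47 ± 0.22 in Casp1-null and 9.58 ± 0.76 in wild type (SD, n = 3 each), a 4.30-fold fall (-2.10 ± 0.28 log2, SE, limma adjusted p = 0.000903). Without the 3 arrays that stood apart the difference was -1.67 log2 (adjusted p = 0.0013), and with the spread of the duodenal arrays alone the adjusted p was 0.0648. No other segment showed it: Ugt2b38 averaged 5.46 in Casp1-null and 5.62 in wild-type jejunum, and 5.67 in Casp1-null and 5.73 in wild-type ileum. The test of whether its genotype difference differed between segments did not pass (adjusted p = 0.113). In liver it had 9.34 ± 0.24 in Casp1-null and 9.77 ± 0.10 in wild type (SD, n = 3 each; adjusted p = 0.302).

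Ugt2b38 lies on chromosome 5 (87409939 to 87424203, GRCm38.p6) in a row of UGT2 genes with Ugt2b37 and Ugt2b5, its closest relatives among these promoters. Ugt2b37 was under the background reading in both duodenal groups. Ugt2b5 had 8.996, 9.235 and 8.397 in Casp1-null and 9.36, 9.32 and 9.25 in wild-type duodenum, where the Casp1-null values all lay lower and the difference of -0.43 log2 did not pass the test. The other members of the cluster did not change by the test in duodenum. Probes of such close copies may share signal.

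The promoters of Ugt2b38, Ugt2b37 and Ugt2b5 are printed because Ugt2b38 fell and these closest relatives were not called. They are not all adjacent, as Ugt2a3 lies between Ugt2b37 and Ugt2b38. Ugt2b38 shared 86.9% of aligned bases with Ugt2b37 and 84.2% with Ugt2b5, and Ugt2b37 and Ugt2b5 shared 76.2%. Capitals mark the longest run that all 3 hold, 62 bases long, which begins at -71, -85 and -68 in the order printed (RefSeq, GRCm38.p6). None of the 3 holds any of the 3 motifs searched, which says only that those letters are not in these windows.
Ugt2b38 promoter, chr5:87424154-87424453, minus strand: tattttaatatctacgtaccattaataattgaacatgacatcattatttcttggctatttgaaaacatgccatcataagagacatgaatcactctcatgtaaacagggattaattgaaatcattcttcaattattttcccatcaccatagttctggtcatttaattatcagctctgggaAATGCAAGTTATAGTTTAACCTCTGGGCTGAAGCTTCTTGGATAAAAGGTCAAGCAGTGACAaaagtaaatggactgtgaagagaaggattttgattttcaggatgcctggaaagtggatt
Ugt2b37 promoter, chr5:87254739-87255038, minus strand: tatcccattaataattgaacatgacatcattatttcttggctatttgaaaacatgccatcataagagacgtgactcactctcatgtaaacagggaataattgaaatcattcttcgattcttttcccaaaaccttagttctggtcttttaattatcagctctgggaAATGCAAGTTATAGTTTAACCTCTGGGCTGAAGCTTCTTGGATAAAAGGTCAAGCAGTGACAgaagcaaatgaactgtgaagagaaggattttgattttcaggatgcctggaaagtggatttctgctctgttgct
Ugt2b5 promoter, chr5:87140291-87140590, minus strand: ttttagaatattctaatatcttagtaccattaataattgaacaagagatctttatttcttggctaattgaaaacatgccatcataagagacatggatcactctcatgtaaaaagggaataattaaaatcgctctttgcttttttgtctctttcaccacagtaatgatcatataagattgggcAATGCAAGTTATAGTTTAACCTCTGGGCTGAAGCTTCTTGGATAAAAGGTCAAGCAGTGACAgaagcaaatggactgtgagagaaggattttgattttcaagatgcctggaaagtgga

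Gsta3 had 5.62, 5.63 and 5.78 in Casp1-null duodenum, against 7.30, 7.26 and 7.71 in wild-type duodenum. Each genotype was tight and the groups did not overlap. The fall was 3.36-fold (-1.75 ± 0.35 log2, SE, adjusted p = 0.0259). Leaving out any 1 duodenal array kept the size between -1.60 and -1.83 log2, but the adjusted p was then between 0.0606 and 0.11. Without the 3 arrays that stood apart it was -1.81 log2 (adjusted p = 0.0222). In jejunum Gsta3 had 5.26, 5.19 and 4.11 in Casp1-null, with a mean under the background reading, and 6.16, 6.26 and 6.47 in wild type. That is at least 2.68-fold lower, with an adjusted p of 0.0569 that missed the threshold and of 0.0289 without the 3 arrays. In liver, where it was high, it had 12.21, 11.81 and 11.55 in Casp1-null and 12.35, 12.25 and 12.34 in wild type (adjusted p = 0.365). For 2 of 43 enzymes, Gsta3 and Mgst1, all Casp1-null arrays lay below the wild-type arrays in duodenum, jejunum and liver, as did 0.946% of all genes. Without jejunum wild-type replicate 3 the jejunal difference of Gsta3 was -1.36 log2 (adjusted p = 0.162). In ileum the genotypes overlapped for Gsta3, with 6.39, 5.45 and 6.92 in Casp1-null and 6.05, 7.08 and 6.33 in wild type.

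The Gsta3 and Mgst1 promoters are shown since both genes were called by genotype, Gsta3 as lower in duodenum and Mgst1 as higher in ileum. They were also chosen because both hold the core of the antioxidant response element, the site of NRF2, which induces many glutathione transferases. The part of NRF2 in these differences was not tested. Capitals mark TGACNNNGC, or its reverse complement in Mgst1, beginning at -121 in Gsta3 and -56 in Mgst1 (RefSeq, GRCm38.p6). The motif, searched on both strands, occurs in 12.4% of all 32851 promoters and in 3 of the 51 promoters of these enzymes, the other being that of Gstm7. In Gsta3 an HNF1 element also lies at -149 on the opposite strand, with no overlap. The third motif, CAAAGTCCA of HNF4, was found in 0.475% of promoters and among these enzymes in that of Sult1b1.
Gsta3 promoter, chr1:21240335-21240634, plus strand: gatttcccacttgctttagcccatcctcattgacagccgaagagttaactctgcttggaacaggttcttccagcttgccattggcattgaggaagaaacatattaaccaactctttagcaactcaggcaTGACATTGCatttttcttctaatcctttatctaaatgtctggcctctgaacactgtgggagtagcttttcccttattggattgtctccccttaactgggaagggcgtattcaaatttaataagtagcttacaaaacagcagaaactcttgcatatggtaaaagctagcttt
Mgst1 promoter, chr6:138140277-138140576, plus strand: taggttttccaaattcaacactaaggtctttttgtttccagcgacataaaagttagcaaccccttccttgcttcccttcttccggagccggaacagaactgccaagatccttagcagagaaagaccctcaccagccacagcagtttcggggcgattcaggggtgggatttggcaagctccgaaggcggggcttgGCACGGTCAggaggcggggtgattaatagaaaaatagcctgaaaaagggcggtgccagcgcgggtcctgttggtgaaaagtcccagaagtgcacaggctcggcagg

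More enzymes leaned the same way in duodenum without passing the test. In 15 of 43 all 3 Casp1-null arrays lay below all wild-type arrays, against 11.1% of all genes, and in 3 they lay above, against 11.6%. The 15 include all 6 mu-class genes, whose differences ran between -0.90 and -0.24 log2 with none called. Gstm1 had 11.03, 10.25 and 10.93 in Casp1-null, against 11.64 in all 3 wild-type arrays (-0.90 ± 0.35 log2, SE, adjusted p = 0.281). Gstm4 had the smallest p of them (-0.65 ± 0.19 log2, SE, adjusted p = 0.137). Gstp1, Mgst1 and Mgst2 differed by -0.43, -0.33 and -0.44 log2. Probes of the mu-class genes may share signal, which was not measured, so these 6 cannot be taken as separate observations.

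Marker averages of other cell types also differed between the genotypes in these duodenal arrays. The 10 smooth muscle and stroma markers averaged 4.85 to 5.17 in Casp1-null and 4.31 to 4.47 in wild type. These averages lie close to or under the intestinal background reading of 4.87. Myeloid markers (5 of 6 measured) averaged 5.99 to 6.92 in Casp1-null and 5.48 to 5.66 in wild type, and T and B cell markers (7 of 9 measured) 7.35 to 7.72 in Casp1-null and 6.89 to 7.09 in wild type. Enterocyte markers overlapped, at 12.54 to 12.75 in Casp1-null and 12.68 to 12.74 in wild type. The part of these cells in the duodenal differences was not tested.

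**Figure D4:**
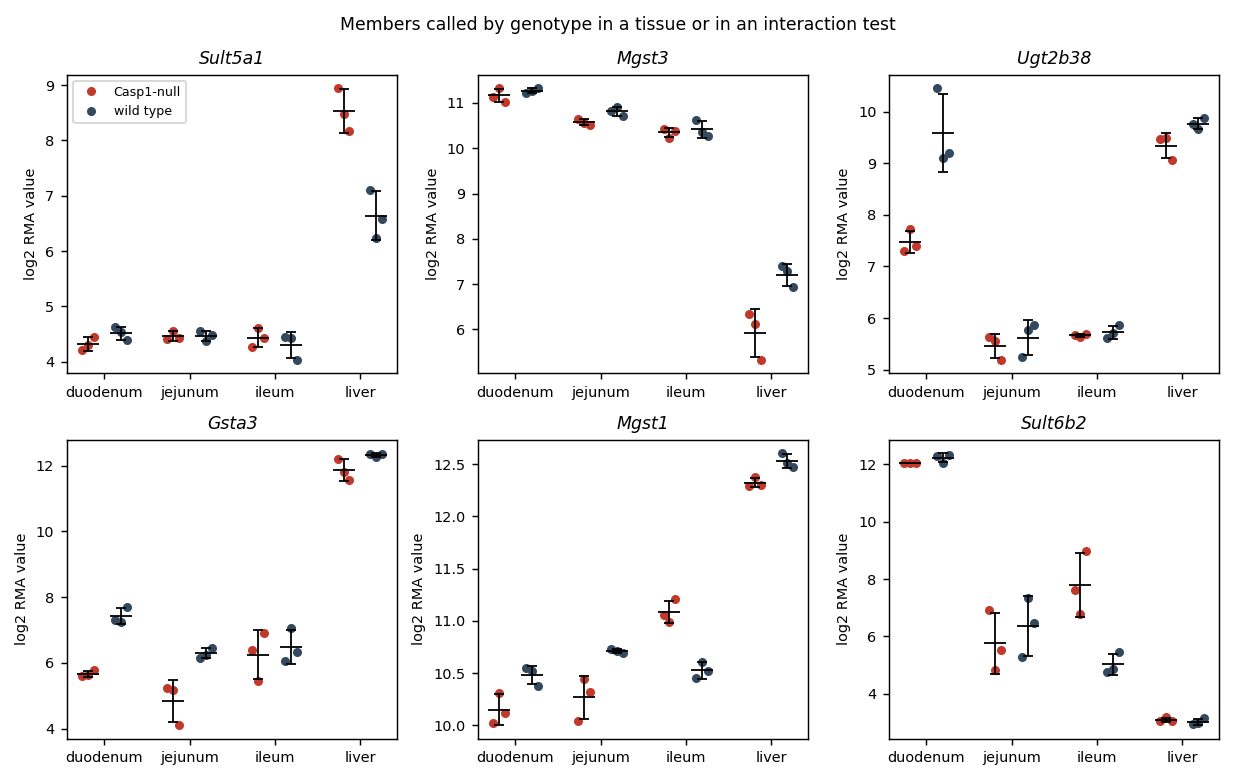
Log2 values of the 6 enzymes called by genotype in a tissue or in a test of whether the difference varied between tissues, in Casp1-null (red) and wild-type (dark) arrays of each tissue; bars are the mean and SD of 3 arrays. Duodenal Ugt2b38 and Gsta3, ileal Sult6b2 and Mgst1, and liver Sult5a1 and Mgst3 separate by genotype.

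In ileum, Mgst1 and Sult6b2 were higher in Casp1-null mice. Mgst1 had 11.06, 10.99 and 11.21 in the Casp1-null ilea and 10.45, 10.61 and 10.52 in the wild-type ilea, with no overlap. Its mean was 11.08 ± 0.11 in Casp1-null and 10.53 ± 0.08 in wild type (SD, n = 3 each), a 1.47-fold rise (0.56 ± 0.11 log2, SE, adjusted p = 0.0215). In the other tissues the Casp1-null arrays all lay below the wild-type arrays: the difference was -0.33 log2 in duodenum, -0.44 in jejunum (adjusted p = 0.0543) and -0.20 in liver, none of which passed the test. The difference between segments was itself called for Mgst1 alone (F-test, adjusted p = 0.0288; 0.117% of all genes). With the spread of the ileal arrays alone the adjusted p was 0.250, and after renewed quantile normalization it was 0.0666. Without the 3 arrays that stood apart the ileal rise was 0.54 log2 with an adjusted p of 0.166, and that of the F-test was 0.163. Leaving out ileum wild-type replicate 1 or 3, or ileum Casp1-null replicate 1 or 3, gave an ileal adjusted p of 0.105, 0.0859, 0.057 and 0.113, with differences between 0.50 and 0.57 log2. The F-test missed the threshold, with an adjusted p between 0.0519 and 0.109, without those 4 arrays in turn, any 1 wild-type jejunal array, duodenum Casp1-null replicate 3 or duodenum wild-type replicate 1 or 2.

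Sult6b2 had 7.62, 6.77 and 8.97 in Casp1-null ileum, against 4.76, 4.87 and 5.45 in wild-type ileum. The highest value came from the Casp1-null array with the high stroma markers, and the groups did not overlap. The rise was 6.77-fold (2.76 ± 0.57 log2, SE, adjusted p = 0.0364), with a wild-type mean of 5.03, just above the background reading. It missed the threshold in 15 of 26 alternatives; without the 3 arrays that stood apart it was 2.09 log2 with an adjusted p of 0.368, and with the spread of the ileal arrays alone the adjusted p was 0.268. The adjusted p lay between 0.0735 and 0.158, and the rise between 2.17 and 2.97 log2, without ileum Casp1-null replicate 1 or 3 or any 1 wild-type ileal array. Leaving out any 1 duodenal array or jejunum wild-type replicate 3, which changes only the spread, gave 0.0541 to 0.0577. Duodenal levels of this gene were 12.05 in each of the 3 Casp1-null arrays and 12.04 to 12.32 in the wild-type arrays, and in jejunum the genotypes overlapped.

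Ugt2a3, the other enzyme with a steep fall towards the ileum, had 6.05, 6.31 and 6.63 in Casp1-null ileum and 5.40, 4.68 and 5.88 in wild-type ileum (1.01 ± 0.24 log2, SE, adjusted p = 0.0785). It was 0.54 log2 (adjusted p = 0.518) without the 3 arrays that stood apart, and 1.29 log2 (adjusted p = 0.0133) without ileum wild-type replicate 3. Gsto1, an omega-class thioltransferase, had 11.29, 11.22 and 11.30 in Casp1-null and 10.91, 10.75 and 10.85 in wild-type ileum (0.43 ± 0.09 log2, SE, adjusted p = 0.0546), and passed under 7 of 26 alternatives. In 8 of 43 enzymes the ileal Casp1-null arrays all lay above the wild-type arrays, against 4.49% of all genes, and in 1 all lay below, against 4.74%.

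Of 5 genes of the proximal intestine, looked at after these values had been seen, Fabp1 and Onecut2 separated by genotype and the others overlapped. Fabp1, a fatty acid binding protein, had 10.49, 10.96 and 11.10 in Casp1-null ileum and 9.74, 8.83 and 8.70 in wild-type ileum, a 3.39-fold rise (1.76 ± 0.21 log2, SE, adjusted p = 0.000381; adjusted p = 0.027 without the 3 arrays that stood apart). The transcription factor gene Onecut2 had 5.79, 5.78 and 6.20 in Casp1-null and 5.05, 4.77 and 4.94 in wild type (adjusted p = 0.174). Lct, the lactase gene, Gata4 and Pdx1 overlapped between genotypes. Over the 5 genes the array means were 6.79 to 7.37 in Casp1-null and 5.62 to 6.49 in wild-type ileum. The distal genes Fabp6 and Slc10a2 together averaged 11.90 to 12.08 in Casp1-null and 11.90 to 12.18 in wild type. The part of where along the ileum each sample was taken was not tested.

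**Figure D5:**
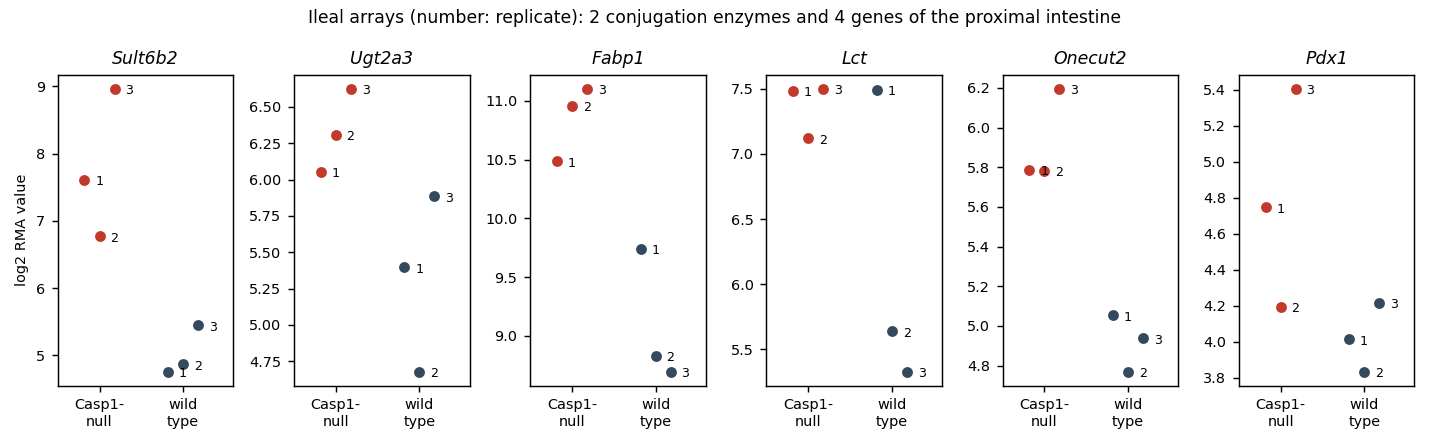
Log2 values in the 6 ileal arrays, Casp1-null left of wild type, for Sult6b2, Ugt2a3, Fabp1, Lct, Onecut2 and Pdx1; numbers are replicates, and replicate 3 of Casp1-null and replicate 2 of wild type carried the high stroma markers. Sult6b2, Ugt2a3, Fabp1 and Onecut2 separate by genotype, while Lct and Pdx1 overlap.

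In jejunum no enzyme passed the test. Mgst1 came closest, with 10.04, 10.44 and 10.32 in Casp1-null and 10.73, 10.71 and 10.69 in wild type. Gsto1 had 11.79, 11.80 and 11.60 in Casp1-null and 11.35, 11.50 and 11.34 in wild type (0.33 ± 0.09 log2, SE, adjusted p = 0.12). Gstp1 differed by -0.45 log2 and Sult1d1 by 0.45 log2 (adjusted p = 0.221 and 0.275). In 7 of 43 enzymes all Casp1-null arrays lay below and in 4 above the wild-type arrays, against 9.24% and 10.3% of all genes. Myeloid markers averaged 6.14 to 7.37 in Casp1-null and 5.66 to 6.06 in wild-type jejunum; their part in the jejunal differences was not tested.

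In liver, Sult5a1 was higher in Casp1-null mice. It had 8.94, 8.48 and 8.17 in the Casp1-null livers, against 7.10, 6.23 and 6.59 in the wild-type livers with no overlap. The mean was 8.53 ± 0.39 in Casp1-null and 6.64 ± 0.44 in wild type (SD, n = 3 each), a 3.71-fold rise (1.89 ± 0.27 log2, SE, adjusted p = 0.0423). The difference stayed between 1.69 and 2.12 log2 when any 1 liver array was left out, but the adjusted p was then between 0.0521 and 0.168. In each intestinal segment Sult5a1 was under the background reading in both genotypes. The contrast of its liver difference with the mean of the segments, 1.91 ± 0.22 log2 (SE, adjusted p = 3.06e-05), therefore restates the liver difference. Without the 3 arrays that stood apart it was 1.87 log2 (adjusted p = 0.000291). With all arrays that contrast called 2 of 43 enzymes and 2.78% of all genes.

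Mgst3 was the other one. It had 6.33, 6.11 and 5.33 in Casp1-null liver and 7.39, 7.28 and 6.93 in wild-type liver. The groups did not overlap, but the fall of 2.43-fold did not pass within liver (-1.28 ± 0.27 log2, SE, adjusted p = 0.123). Against the mean of the segments it did (-1.14 ± 0.21 log2, SE, adjusted p = 0.00464). Without the 3 arrays that stood apart that contrast was -1.12 log2 (adjusted p = 0.0162). With the spread pooled over all 24 arrays the liver fall had an adjusted p of 0.000235. In the segments Mgst3 had group means between 10.35 and 11.27, with a genotype difference between -0.24 and -0.07 log2. The contrast with the segments is therefore largely the liver difference, read with the spread of all 24 arrays. Tissue, fasting and oil load also differ together in that contrast and cannot be told apart.

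The liver also had enzymes with small, uncalled shifts. Sult1d1 had 11.20, 11.15 and 11.35 in Casp1-null and 10.89, 10.63 and 10.71 in wild type (adjusted p = 0.136). Gstm6 and Gsta4 differed by -0.61 and -0.67 log2, with all Casp1-null arrays below the wild-type arrays and adjusted p of 0.193 and 0.222. In 5 of 43 enzymes the Casp1-null livers all lay above and in 8 below the wild-type livers, against 8.96% and 11.1% of all genes. Enterocyte markers averaged 6.36 to 6.51 in Casp1-null and 6.65 to 7.11 in wild-type liver, and goblet cell markers (6 of 7 measured) 5.29 to 5.41 in Casp1-null and 5.60 to 6.12 in wild type. Hepatocyte markers averaged 13.02 to 13.11 in Casp1-null and 12.90 to 13.01 in wild-type liver, and T and B cell markers 4.74 to 4.80 in Casp1-null and 4.94 to 5.31 in wild type. The T and B cell averages lie close to or under the liver background reading of 5.19. The part of these cells in the liver differences was not tested.

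Around the conjugation enzymes, 60 of 69 listed genes for cofactor supply, glutathione turnover, regulation, other conjugation, export and NRF2 response were measured. In each of duodenum, jejunum and liver 1 rose and 2 fell, and in ileum 1 rose and 1 fell. The test called 1.21% of all genes in duodenum, 2.06% in jejunum, 0.925% in liver and 0.893% in ileum, and such counts among 60 do not set the listed genes apart. With the 3 arrays that stood apart left out, Gclm in duodenum (adjusted p = 0.0922) and Ephx2 in ileum (adjusted p = 0.109) no longer passed. The other calls in the segments passed again. In duodenum Gsr of the glutathione list (-0.70 log2, adjusted p = 0.0425) and Abcc3 (-1.05 log2, adjusted p = 0.0242) then passed as well. None of the 8 measured genes that supply UDP-glucuronate and PAPS was called in any tissue. Of 13 other conjugating enzymes, Tpmt, thiopurine S-methyltransferase, was called alone. It had 10.41, 10.37 and 10.21 in Casp1-null and 8.78, 8.72 and 8.56 in wild-type duodenum, a 3.12-fold rise (adjusted p = 0.00121). In liver it was 1.77-fold higher (adjusted p = 0.0186). In jejunum 9.52, 9.40 and 8.29 in Casp1-null stood against 8.09, 8.11 and 8.24 in wild type without passing. In ileum Tpmt had 8.38 to 8.63 in Casp1-null and 8.09 to 8.17 in wild type, also without passing.

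Of 11 genes of glutathione supply and turnover, Gclm, the modifier subunit of the enzyme that makes the glutathione precursor, was called alone with all arrays. It had 11.19, 10.86 and 11.01 in Casp1-null and 11.54, 11.52 and 11.55 in wild-type duodenum (-0.52 ± 0.12 log2, SE, adjusted p = 0.0474). Of 7 NRF2 targets outside the families a different gene was called in duodenum, in jejunum and in liver, and none in ileum. Cbr3, a carbonyl reductase, averaged 4.13 ± 0.22 in Casp1-null duodenum (SD, n = 3), under the background reading, against 7.30, 6.62 and 6.54 in wild type, at least 3.85-fold lower (adjusted p = 6.95e-06). Nqo1, the quinone reductase, fell 1.74-fold in jejunum (adjusted p = 0.0392), and Me1, malic enzyme, fell 1.92-fold in liver (adjusted p = 0.0197). The other targets did not pass in those tissues. Uncalled, Nqo1 also lay lower without overlap in duodenum, at 9.05 to 9.28 in Casp1-null and 9.66 to 9.92 in wild type. In liver it had 5.14 to 5.85 in Casp1-null and 6.04 to 6.15 in wild type, and in ileum the genotypes overlapped. Such a separation was found for 11.1% of all genes in duodenum and 11.1% in liver.

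Among 10 sensors and regulators, Ahr, the receptor for dioxin and dietary indoles, was 1.70-fold higher in Casp1-null jejunum (adjusted p = 0.0235). Among 11 genes of conjugate export and deconjugation, Abcc3, an exporter of glucuronides, differed in jejunum by -1.38 ± 0.23 log2 (SE, adjusted p = 0.00579). It had 8.98, 8.73 and 8.80 in Casp1-null and 10.21, 10.56 and 9.88 in wild type. Uncalled with all arrays, Abcc3 also lay lower without overlap in duodenum, at 10.21 to 10.63 in Casp1-null and 10.98 to 11.68 in wild type. In liver it had 10.44 to 10.59 in Casp1-null and 11.05 to 11.24 in wild type, likewise uncalled, and in ileum the genotypes overlapped. Arsb, a lysosomal sulfatase, fell 2.54-fold in liver (adjusted p = 0.00817) and 1.96-fold in ileum (adjusted p = 0.00575). Uncalled, Arsb also lay lower without overlap in duodenum, at 5.92 to 6.13 in Casp1-null and 6.67 to 6.68 in wild type. In jejunum it had 6.10 to 6.15 in Casp1-null and 6.32 to 6.78 in wild type. Such a separation was found for 11.1% of all genes in duodenum, 11.1% in liver and 9.24% in jejunum. Ephx2, the soluble epoxide hydrolase, rose 1.95-fold in ileum (adjusted p = 0.0232).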

How the data were processed

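RNA of 24 samples was hybridised to 1-colour Affymetrix whole-transcript arrays, 3 per tissue and genotype, each made from 100 ng of RNA with an integrity number above 8.0, per the labels' protocols. The deposited values are log2 signals of 35556 probe sets after RMA, per the submitters' processing notes. The version of RMA and the array's genome build are not given in the sources used here. Scan or hybridisation batches are not given there either.

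Probe sets were named from the platform annotation: 21218 had 1 gene symbol, 1881 several and 12457 none. All 43 enzymes matched the RefSeq gene table (GRCm38.p6) by gene ID. Differences were fitted with lmFit and eBayes of limma 3.58.1 in R 4.3.3, two-sided, with Benjamini-Hochberg adjustment over all 35556 probe sets and a threshold of 0.05. The 6 liver arrays were fitted alone, the 18 intestinal arrays together, and all 24 together for liver against segments. The fits were tested on simulated data. Where 1 group mean lay under the background reading, the fold is a lower bound, with that reading in place of the low mean. The number of arrays limits the precision.

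Promoters came from RefSeq (40 of 43 enzymes matched, with 51 promoters) and were aligned with Biopython 1.88. No protein sequence was used here. The enzymes and lists were chosen with earlier results of these data known. Genes named were those called by genotype or in an interaction, the 5 with the smallest p in each tissue, the 2 with the highest wild-type mean of each family in liver and in intestine, and the largest differences between segments and organs. The genes of proximal and distal intestine, the background reading and the removal of 3 arrays were chosen after seeing the data.

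Replicate numbers were not treated as pairs. Deviations of arrays with the same number correlated between -0.082 and 0.281 for segments of 1 genotype (6 of 18 pairs over 0.1). For genotypes of 1 tissue they correlated between -0.536 and 0.470 (2 of 12). No values for unlike numbers stand beside these, so they do not show whether arrays share a mouse. No pair of arrays was identical. The alternatives were array weights, renewed quantile normalization, a filter that kept probe sets above the median one, robust fitting with a variance trend, replicate blocks, another choice of probe set, another set of arrays for the spread, and leaving out arrays.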

Additional observations from a re-analysis of the deposited data

Results flagged for a closer look

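For 2 enzymes the genotype difference was itself called as unequal between tissues. That of Mgst3 was -1.14 log2 in liver against the mean of the segments. The same contrast gave 1.91 log2 for Sult5a1, but this gene was under the background reading in both genotypes in every segment, so the value restates its liver difference. For Mgst1 the difference varied between the segments with an adjusted p of 0.0288 (limma F-test). Mgst1 had -0.33 log2 in duodenum, -0.44 in jejunum, 0.56 in ileum and -0.20 in liver, and in each tissue the genotypes did not overlap.

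For 4 other enzymes all Casp1-null arrays lay on one side of the wild-type arrays in 1 tissue and on the other side in another. With Mgst1 that makes 5 of 43 enzymes, against 4.72% of all genes. No test called these contrasts: either the difference was tested within segments and did not pass, or liver against a single segment was not tested. Gstm7 had -0.24 log2 in duodenum and 0.44 in ileum. Mgst2 had -0.44 in duodenum, -0.39 in jejunum and 0.17 in ileum. Ugt2b37 had -0.52 in duodenum, where it was not shown above background, and 0.60 in liver.

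Sult1a1 had 0.61 in duodenum, 0.81 in jejunum and -0.33 in liver. Its wild-type means were under the background reading in duodenum and jejunum. Among the intestinal arrays Sult1a1 was highest in ileum Casp1-null replicate 3 at 7.22, followed by jejunum Casp1-null replicate 3 at 5.99 and ileum wild-type replicate 2 at 5.71. The ileal ones are those with the high smooth muscle and stroma markers, whose part in this was not tested.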

How the results depend on the processing

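None of the 10 counts and 23 genotype differences or interactions of named enzymes changed direction in the alternatives run. Other differences between segments or organs and the genes around the enzymes were recomputed only without the 3 arrays that stood apart. The counts for wild-type duodenum against ileum, duodenum against jejunum, liver against segments and the genotype difference of liver against segments stayed within 1.5 times in all alternatives run; leaving out single arrays gave 22 to 28, 16 to 23, 32 to 35 and 2 to 3. Jejunum against ileum gave 9 to 14 in that way. The liver genotype count of 1 became 3 with the spread pooled over all 24 arrays, and 0 whichever liver array was left out. In duodenum the count of 2 became 1 with the replicate block (Gsta3 lost, adjusted p = 0.0528), 1 with the arrays of the segment alone, and 1 to 2 without single arrays. In jejunum the count of 0 became 1 with a variance trend and robust fitting (Mgst1), 2 with the filter at the median and 2 with array weights (Gsta3 and Mgst1), 1 after renewed quantile normalization (Gsto1), 1 without the 3 arrays that stood apart (Gsta3), and 0 to 1 without single arrays. In ileum the count of 2 became 4 with the filter, 1 with the replicate block (Sult6b2 lost, adjusted p = 0.0579), 0 with the arrays of the segment alone, 0 without the 3 arrays, and 0 to 3 without single arrays. The difference between segments, 1 enzyme, became 0 after renewed quantile normalization, 0 without the 3 arrays, and 0 to 1 without single arrays. The replicate block moved no other count by over 1.5 times. Fewer probe sets tested or fewer arrays enter several of these settings; otherwise the cause was not tested. With 3 arrays a group, changes in weakly detected enzymes are limited by signal over background.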
